A study of Homo sapiens with 9 samples.

Results

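The genes described here are 4 receptors that take up particles, lipoproteins or debris (OLR1, SCARB1, MARCO and LRP1) and 6 genes of the machinery that forms and cuts off endocytic vesicles (CLTC, CLTB, CAV1, CAV2, DNM1 and DNM2). They were listed by symbol for these roles, with earlier results of these data known. All 10 were found among the 60880 Ensembl gene IDs of the count tables. SNU5, a human gastric carcinoma line, was treated for 24 h with AuNR-PEG-Ab (gold nanorods carrying ramucirumab on a polyethylene glycol layer, NR group), with AuSP-PEG-Ab (gold nanospheres carrying the same antibody, SP group) or with ramucirumab alone, an antibody against VEGFR2 (Ab group), at 8 μg/mL of antibody in each case. Poly-A RNA was sequenced, with 3 libraries per group, 9 in all. Every group received the antibody, and untreated cells or particles without antibody were not analysed here, so the particle and the way it presents the antibody cannot be told apart. The labels give no batch of culture or preparation. A difference of that kind between the groups cannot be told apart from the treatment either. The study calls its replicates biological and its cell culture experiments independently repeated, while the labels do not tie the 3 libraries of a group to separate cultures. The p-values measure the spread between these libraries, which may in part be technical.

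Cells can take up antibody-coated particles by receptor-mediated endocytosis, and phagocytosis, on which the study centres, is another way. In the clathrin route, adaptors gather receptors under a lattice of heavy and light chains, and a dynamin ring cuts the bud from the membrane. Caveolae are a second route, small flask-shaped pits built on caveolins and cavins, while scavenger receptors and LRP1 bind modified lipoproteins, dead cells and protein-coated particles, mostly studied in macrophages, endothelium and liver.

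Library totals were 25735410, 13863155 and 15943980 counts in NR libraries 1 to 3, 21682836, 22914759 and 20601906 in SP, and 19566064, 26318227 and 21031024 in Ab. Levels are given as CPM, which are counts divided by the TMM-scaled library total and brought to one common total for all libraries. A count of 3, taken as the floor of detection, came to 0.114 to 0.216 CPM, so that MARCO alone of the 10 genes lay near it. Calls rest on edgeR's quasi-likelihood test, with the Benjamini-Hochberg procedure run across every gene tested: a called gene had an adjusted p no higher than 0.05 and moved 2-fold or more. The Ab libraries served both particle groups, so the values of these groups are given side by side and are not independent of each other.

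The labelled cell type was checked against epithelial markers. KRT8 and KRT18, the keratins of simple epithelia, had means of 1894 and 309.8 CPM in NR, 1982 and 302.1 CPM in SP, and 648 and 205.0 CPM in Ab. EPCAM and CDH1, the epithelial adhesion genes, were low at 5.21 and 5.68 CPM in NR, 4.93 and 6.79 CPM in SP, and 1.59 and 0.292 CPM in Ab, and KRT19 had at most 1 count in any library. The summed level of the 8 epithelial markers was 2456 to 2485 CPM in NR libraries, 2515 to 2607 CPM in SP and 939.5 to 1013 CPM in Ab. KRT8 carried most of this sum. Of the 7 markers tested, 5 passed the adjusted p as higher in each particle group, where 36.4% of all genes tested did (4 of 6 without CDH1, which passed the filter on low counts only with the help of the particle libraries), while CLDN4 (48.8 CPM in NR, 49.1 in SP and 45.2 in Ab) and CLDN7 (18.6, 18.1 and 20.03 CPM), claudins of tight junctions, did not pass it. The part of these markers in the values of the uptake genes was not tested. In bulk RNA, more cells of a type and more RNA per cell cannot be told apart.

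Markers of the cell types best known for scavenger receptors were checked in the same way. PTPRC, CD163, MRC1, TYROBP, LYZ, AIF1 and FCER1G, genes that define leukocytes or macrophages, were at 3 counts or under in every library. The leukocyte list summed to 3.13 to 4.69 CPM in NR, 3.02 to 6.11 CPM in SP and 0.573 to 1.38 CPM in Ab, led by CSF1R, the receptor of macrophage growth factors, in the particle groups and by CD14 in Ab. CSF1R had means of 3.79 CPM in NR, 4.13 CPM in SP and 0.200 CPM in Ab, and CD14 had 0.256 CPM, 0.141 CPM and 0.649 CPM. CSF1R was called higher in both particle groups and CD14 lower in NR, each kept by the filter on low counts through the group where it is high. TEK, TIE1 and ERG, which mark endothelium, were at 3 counts or under in every library, and the endothelial list, of which 7 of 8 genes were matched, summed to 51.7 to 55.6 CPM in NR, 47.3 to 54.8 CPM in SP and 32.5 to 33.3 CPM in Ab, led by ESAM. Of its 3 tested genes, 2 were called higher in both particle groups, where 12.4% of all genes tested were in NR and 12.6% in SP, and 1 of the 2, VWF, passed the filter on low counts only with the help of the particle libraries. CDH5, the cadherin of endothelial junctions, had means of 21.1 CPM in NR, 21.1 CPM in SP and 4.08 CPM in Ab, and VWF, the clotting factor carrier, 1.38 CPM, 1.46 CPM and 0.0159 CPM.

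The 8 fibroblast markers summed to 106.4 to 117.2 CPM in NR, 116.5 to 125.1 CPM in SP, and 48.8, 45.3 and 20.02 CPM in Ab libraries 1 to 3. Of these 8, 4 were called higher in each particle group, where 12.4% and 12.6% of all genes tested were, and 3 of the 4 (DCN, PDGFRB and FAP) passed the filter on low counts only with the help of the particle libraries. LUM, a proteoglycan of the collagen matrix, had means of 37.5 CPM in NR, 38.6 CPM in SP and 0.928 CPM in Ab, DCN 19.9, 21.2 and 0.529 CPM, and PDGFRB 11.2, 12.4 and 0.436 CPM. LUM led the list in NR, and COL1A1 led it in SP and Ab at 39.5 and 23.5 CPM. In this list some libraries stood apart from their group. COL1A2, a collagen chain, had 37, 0 and 0 counts in NR libraries 1 to 3, 49, 49 and 43 in SP, and 198, 278 and 33 in Ab. PDGFRA, a growth factor receptor, had 58, 0 and 0 counts in NR against 50 to 66 in SP and 45 to 72 in Ab. Whether these zeros are failed counts or absent RNA was not tested, so no fold change in NR is read from either gene. The part of these markers in the levels of the uptake genes was not tested, and values without each library are given where they change a call.

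The promoters of LRP1, CAV1 and CAV2 are shown because LRP1 was the member that differed between rods and spheres, and because the neighbouring caveolin genes changed by unequal amounts. Each line is the 250 bases before the first RefSeq start on the plus strand of GRCh38.p14, at chr12:57128233-57128482 for LRP1, chr7:116524759-116525008 for CAV1 and chr7:116499488-116499737 for CAV2. Capitals mark the GC box, searched as GGGCGG on both strands.
LRP1: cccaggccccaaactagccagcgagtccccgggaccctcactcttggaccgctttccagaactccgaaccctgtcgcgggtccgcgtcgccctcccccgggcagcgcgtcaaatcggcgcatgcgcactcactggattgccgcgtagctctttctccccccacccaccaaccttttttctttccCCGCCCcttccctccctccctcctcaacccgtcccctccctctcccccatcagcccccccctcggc
CAV1: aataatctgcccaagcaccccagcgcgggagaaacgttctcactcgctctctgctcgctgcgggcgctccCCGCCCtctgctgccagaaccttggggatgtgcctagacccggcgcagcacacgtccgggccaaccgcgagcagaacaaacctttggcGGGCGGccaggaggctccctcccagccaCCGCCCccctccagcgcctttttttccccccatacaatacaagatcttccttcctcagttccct
CAV2: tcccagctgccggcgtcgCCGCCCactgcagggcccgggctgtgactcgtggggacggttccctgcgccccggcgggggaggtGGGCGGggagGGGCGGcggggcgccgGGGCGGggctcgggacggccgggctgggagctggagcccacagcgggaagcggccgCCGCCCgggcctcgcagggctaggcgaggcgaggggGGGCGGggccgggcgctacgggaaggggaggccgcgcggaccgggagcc
The LRP1 window held 1 GC box, the CAV1 window 3 and the CAV2 window 6, and 42.6% of the 35116 promoters in the table held at least 1. GC content was 67.6%, 63.6% and 83.2%, respectively. These counts hold for the first start alone: another listed start of CAV2 had 3 GC boxes, and another of CAV1 had 2. None of the 3 windows held the AP-1 motif TGANTCA, the TATA box TATAAA, the E-box CACGTG or the sterol element TCACNCCAC, which were present in 6.57%, 10.7%, 6.34% and 0.883% of all promoters. Of the 10 genes, 8 were matched in the table.

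All 4 receptor genes had higher levels in both particle groups than in Ab, and neither particle group overlapped Ab for any of them. Most genes did the same in either direction: 74.6% of all genes tested did not overlap in NR against Ab and 75.1% in SP against Ab. MARCO was not tested in NR, and in SP it passed the filter on low counts through the SP libraries alone. LRP1, a very large receptor of the LDL receptor family that clears protease complexes and lipoproteins, had the largest change among the receptors with 10 or more counts per library. It rose 3.76-fold in NR and 4.53-fold in SP. OLR1 and SCARB1 rose by between 2.17-fold and 2.29-fold. MARCO rose in SP from the floor of detection.

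LRP1 (ENSG00000123384, GRCh37 chr12:57522266-57607144, plus strand) measured 161.9, 170.7 and 171.8 CPM in NR libraries 1 to 3, 210.9, 205.4 and 191.8 CPM in SP, and 50.2, 42.0 and 39.9 CPM in Ab. The 3 groups did not overlap, with SP highest and Ab lowest. The log2 fold change was 1.91 ± 0.07 (SE, n = 3) for NR against Ab and 2.18 ± 0.07 (SE, n = 3) for SP against Ab, with adjusted p of 2.731e-15 and 2.440e-15 in edgeR's quasi-likelihood test. Of the summed exon bases of LRP1, 0.820% are shared with other annotated genes, and the counting is not stated to use strand.

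OLR1 (ENSG00000173391, chr12:10310900-10324737, minus strand) encodes LOX-1, a lectin-like receptor for oxidized LDL. Its levels were 26.5, 28.1 and 27.1 CPM in NR, 28.2, 24.2 and 26.1 CPM in SP, and 11.4, 11.6 and 12.6 CPM in Ab. NR and SP libraries were interleaved, and all 6 lay above every Ab library. The log2 fold change was 1.17 ± 0.09 (SE) in NR and 1.11 ± 0.09 (SE) in SP, with adjusted p of 7.379e-13 and 8.421e-12 in edgeR's quasi-likelihood test.

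SCARB1 (ENSG00000073060, chr12:125261402-125367214, minus strand) encodes SR-B1, the HDL receptor that mediates selective uptake of cholesteryl esters. Its levels were 174.9, 174.0 and 181.3 CPM in NR, 186.6, 181.4 and 185.8 CPM in SP, and 84.9, 75.7 and 76.6 CPM in Ab. The log2 fold change was 1.14 ± 0.05 (SE) in NR and 1.20 ± 0.05 (SE) in SP, with adjusted p of 1.572e-17 and 2.025e-17 in edgeR's quasi-likelihood test. A long RNA annotated over the same locus shares 7.52% of the summed exon bases of SCARB1, so a part of these reads cannot be told apart from it.

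MARCO (ENSG00000019169, chr2:119699770-119752236, plus strand), a class A scavenger receptor of macrophages, had 13, 5 and 11 counts in the NR libraries, 11, 12 and 15 counts in those of SP, and 2, 1 and 2 counts in those of Ab. The levels were 0.360 to 0.687 CPM in NR, 0.506 to 0.731 CPM in SP and 0.0377 to 0.102 CPM in Ab, where every library lay under the floor. Summed over libraries and divided by the summed totals, the counts were 6.99 times (95% interval 2.67 to 23.1) those of Ab in NR and 7.80 times (3.07 to 25.4) in SP. These exact intervals cover counting error only. The filter on low counts left MARCO out of the NR test and kept it in the SP test through the SP libraries alone, so its call there rests on the group where it is high. With no filter beyond 1 count, its log2 fold change was 2.67 in NR and 2.87 in SP, with adjusted p of 7.98e-04 and 1.555e-04 in edgeR's quasi-likelihood test.

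**Figure D1:**
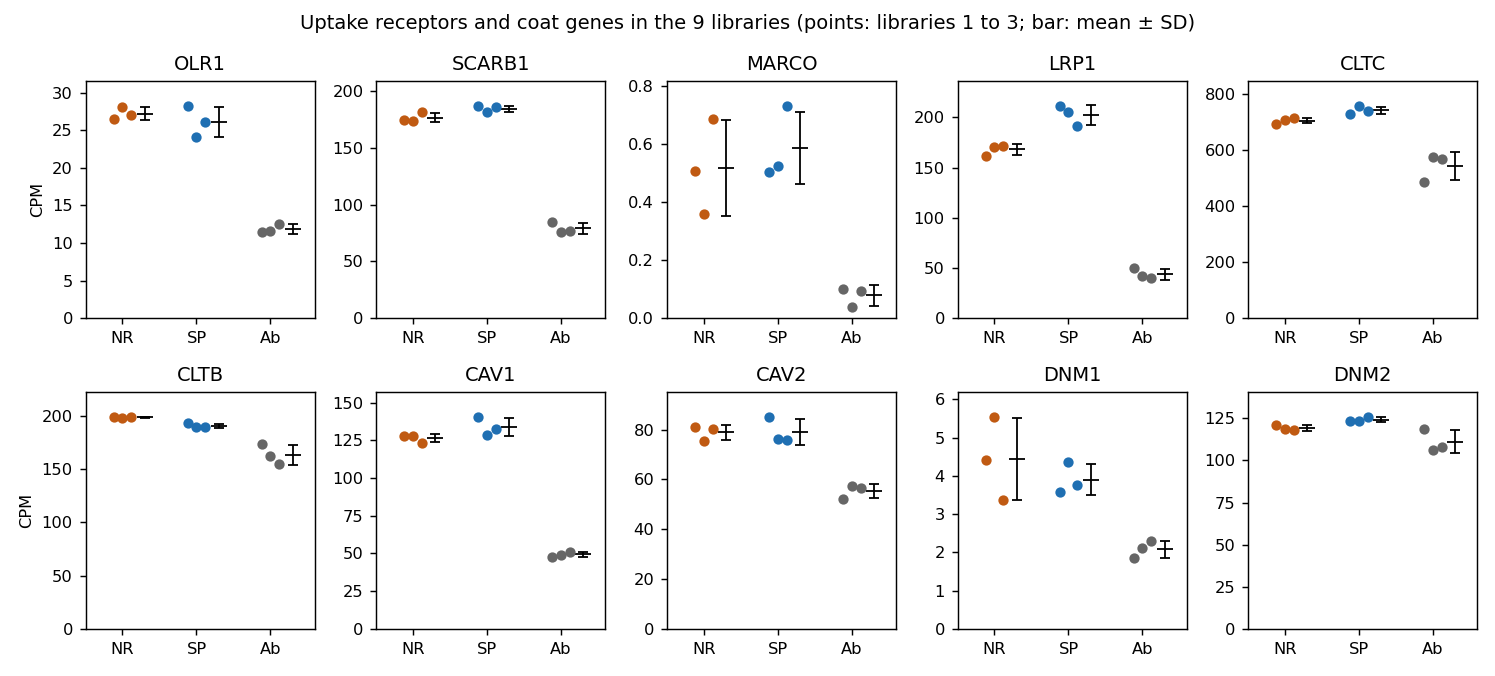
Level of each of the 10 genes in CPM (y axis, starting at 0) in the 3 libraries of NR, SP and Ab (points), with the mean and SD of each group beside them. The Ab libraries are lowest in every panel except DNM2, where Ab library 1 lies among the NR libraries, and for LRP1 the NR libraries, at most 171.8 CPM, lie below the SP libraries, at least 191.8 CPM.

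The clathrin genes were the most abundant of the set per kb of exon, and their fitted changes were smaller than those of the receptors and CAV1. The log2 fold changes of CLTC and CAV2 in SP, 0.4235 and 0.4869, had overlapping intervals (0.3147 to 0.5324 and 0.3572 to 0.6165). Their order turned over without SP library 1, at 0.4245 for CLTC and 0.4205 for CAV2. These changes were not tested against each other. CLTC (ENSG00000141367, chr17:57697045-57774317, plus strand) encodes the heavy chain that makes up the legs of the clathrin triskelion. Its levels were 693.7, 706.9 and 712.9 CPM in NR, 729.8, 755.4 and 740.3 CPM in SP, and 484.9, 575.1 and 568.9 CPM in Ab. Both particle groups lay above Ab, by 27.3% in NR and 34.1% in SP, and the lowest Ab value was that of library 1. The log2 fold changes of 0.35 ± 0.05 and 0.42 ± 0.05 (SE) had adjusted p of 9.694e-06 and 1.979e-07 in edgeR's quasi-likelihood test.

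CLTB (ENSG00000175416, chr5:175819502-175843540, minus strand), 1 of the 2 light chains, measured 198.2, 197.9 and 198.5 CPM in NR, 192.6, 189.0 and 189.6 CPM in SP, and 173.4, 162.0 and 154.3 CPM in Ab. It was 19.2% higher in NR and 14.5% higher in SP than in Ab, with adjusted p of 2.863e-05 and 9.530e-04 in edgeR's quasi-likelihood test. Its partner CLTA, the other light chain, did not pass the test, with 133.8 ± 2.18 CPM in NR, 129.5 ± 1.08 CPM in SP and 126.7 ± 6.80 CPM in Ab (SD, n = 3). Per kb of exon, CLTB made up 65.5% ± 0.384 of light chain counts in NR, 65.3% ± 0.227 in SP and 62.3% ± 1.23 in Ab (SD, n = 3), with no overlap between either particle group and Ab.

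That share differed from Ab by 3.21 percentage points in NR and 3.05 in SP, with a two-sided exact permutation p of 0.1 in each case. With 3 libraries against 3, 0.1 is the smallest p this test can give, so none of these ratios could pass 0.05. Across the 12 comparisons of ratios made, the Benjamini-Hochberg adjusted p was 0.133 for each one at this limit. The ratio of CLTC to both light chains, per kb and on the log2 scale, was -1.40 ± 0.0277 in NR, -1.27 ± 0.0371 in SP and -1.57 ± 0.210 in Ab (SD, n = 3). It stood above Ab in both particle groups and was lower in NR than in SP by 0.13, with no overlap in any of the 3 comparisons and an exact p of 0.1 in each. Without Ab library 1 the differences from Ab were 0.05 in NR and 0.18 in SP. The canonical transcripts in this ratio differ in length, at 8369 bases for CLTC, 1139 for CLTB and 1078 for CLTA. For NR against SP, the median log2 fold change was -0.0763 for genes from 8001 bases and 0.0313 for those of 1001 to 2000. With the trends of length and GC content removed, chosen after seeing the data, NR against SP was -0.01 for CLTC and 0.03 for CLTB. The part of length in the NR to SP difference of this ratio was not tested.

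The caveolins, which lie next to each other on chromosome 7 with 16452 bases between them, changed by unequal amounts. CAV1 (ENSG00000105974, chr7:116165048-116201233, plus strand), the main coat protein of caveolae, measured 127.9, 127.7 and 123.3 CPM in NR, 140.3, 128.5 and 132.2 CPM in SP, and 47.6, 49.1 and 51.2 CPM in Ab. All particle libraries were at more than 2 times the level of every Ab library. The log2 fold change was 1.33 ± 0.05 (SE) in NR and 1.41 ± 0.06 (SE) in SP, with adjusted p of 7.242e-19 and 2.959e-18 in edgeR's quasi-likelihood test.

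CAV2 (ENSG00000105971, chr7:115927434-116148595, plus strand), which forms hetero-oligomers with CAV1, measured 81.1, 75.5 and 80.3 CPM in NR, 85.0, 76.1 and 76.0 CPM in SP, and 52.1, 57.3 and 56.6 CPM in Ab. The rise was 40.1% in both particle groups, with adjusted p of 1.434e-08 in NR and 9.732e-08 in SP in edgeR's quasi-likelihood test. The log2 ratio of CAV2 to CAV1 per kb was -1.44 ± 0.073 in NR, -1.53 ± 0.0387 in SP and -0.60 ± 0.0494 in Ab (SD, n = 3). It was thus lower than in Ab by 0.84 in NR and 0.92 in SP, with no overlap and an exact permutation p of 0.1.

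Dynamins are the GTPases that cut the neck of clathrin buds and caveolae. DNM1 (ENSG00000106976, chr9:130953934-131017527, plus strand), best known from synapses, was scarce at 4.42, 5.54 and 3.37 CPM in NR, 3.59, 4.37 and 3.75 CPM in SP, and 1.84, 2.11 and 2.29 CPM in Ab. Every particle library lay above every Ab library, and the NR libraries were the most spread. DNM1 was called in NR, with a log2 fold change of 1.05 ± 0.20 (SE) and an adjusted p of 4.011e-05 in edgeR's quasi-likelihood test. In SP it passed the adjusted p at 1.941e-04 in that test but missed 2-fold, with a log2 fold change of 0.88 ± 0.19 (SE). The call in NR was lost when NR library 2 (log2 fold change 0.89) or Ab library 1 (0.98) was left out, so the 2-fold mark does not set the particle groups apart.

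DNM2 (ENSG00000079805, chr19:10828731-10944164, plus strand), the dynamin that most cells use, was the member that changed least. It measured 121.1, 118.5 and 118.3 CPM in NR, 123.4, 123.7 and 125.7 CPM in SP, and 118.8, 106.2 and 108.2 CPM in Ab. Ab library 1 lay among the NR libraries. The log2 fold change was 0.08 (95% interval -0.03 to 0.18) in NR, with an adjusted p of 0.164, and 0.14 (0.03 to 0.24) in SP, with an adjusted p of 0.0227 in edgeR's quasi-likelihood test. Neither side of that threshold held when single libraries were left out: NR against Ab passed without Ab library 1 (0.13, adjusted p = 0.00811), and SP against Ab missed it without SP library 2, Ab library 2 or Ab library 3 (adjusted p of 0.0578, 0.147 and 0.118). With the trends of length and GC content removed, an alternative chosen after seeing the data, NR against Ab passed as well (0.09, adjusted p = 0.0368 in the same test). Of the summed exon bases of DNM2, 5.18% are shared with TMED1. DNM1 made up 5.73% ± 1.33 of DNM1 and DNM2 counts per kb in NR, 4.88% ± 0.50 in SP and 2.99% ± 0.459 in Ab (SD, n = 3).

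The members were chosen with earlier results of these data known. The shares and medians below therefore describe this list and cannot test whether uptake genes rose as a class. Counted together, 5 of the 9 members tested in NR against Ab were called higher (OLR1, SCARB1, LRP1, CAV1 and DNM1), where 12.4% of all 15009 genes tested were. In SP against Ab, 5 of 10 were called higher (OLR1, SCARB1, MARCO, LRP1 and CAV1), where 12.6% of 15068 genes were. MARCO passed the filter on low counts through its SP libraries alone, and without it 4 of 9 were called. No member was called lower, where 10.3% and 10.6% of genes were. With no fold minimum, 8 of 9 were higher in NR and 10 of 10 in SP (9 of 9 without MARCO), where 36.4% of genes were in each comparison. The groups did not overlap for 8 of 9 members in NR against Ab and for 10 of 10 in SP against Ab (9 of 9 without MARCO), where 74.6% and 75.1% of genes did not.

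Without MARCO, the median log2 fold change of the 9 other members was 1.05 in NR and 0.875 in SP, against -0.01 over all genes tested in each comparison. The 3 receptors other than MARCO stood at medians of 1.17 and 1.20, and the 6 coat genes at 0.42 and 0.46.

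**Figure D2:**
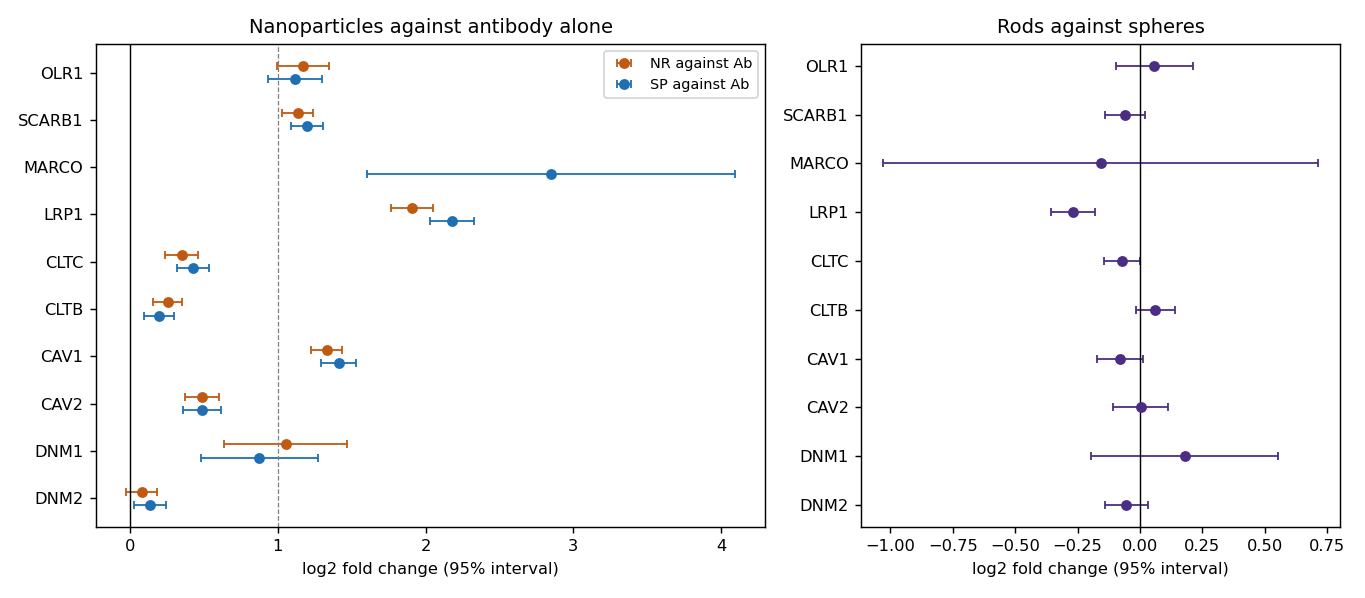
Log2 fold change of each member with its 95% interval (x axis) for NR and SP against Ab (left; the dashed line marks 2-fold) and for NR against SP (right). MARCO was not tested in NR against Ab, LRP1 lies furthest right among the well-counted genes, and in the right panel LRP1 at -0.27 and CLTC at -0.07 have intervals that leave out 0. CLTC did not pass the adjusted p there.

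The rods and the spheres were then compared with each other. The particles differ in size and surface charge as well as in shape, so these properties cannot be told apart here. Of the 10 members, 0 were called at 2-fold, where 0.0201% of 14903 genes were called higher in NR and 0% lower. LRP1 was the single member past the adjusted p, lower in NR, where 0.181% of genes were lower at that threshold and 0.262% higher. LRP1 in NR was 17.0% below SP, with a log2 fold change of -0.27 (95% interval -0.36 to -0.18) and an adjusted p of 0.00875 in edgeR's quasi-likelihood test. It had the 2nd smallest p of all genes tested, and all 3 NR libraries, at most 171.8 CPM, lay below all 3 SP libraries, at least 191.8 CPM.

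The other members showed small differences between NR and SP. The groups did not overlap for 6 of 10 members (6 of 9 without MARCO, which passed the filter on low counts only with the help of the SP libraries), where 18.1% of genes did not: SCARB1, LRP1, CLTC, CAV1 and DNM2 were lower in NR and CLTB was higher. For SCARB1 the log2 difference was -0.06 (95% interval -0.14 to 0.02), for CAV1 -0.08 (-0.17 to 0.01), for DNM2 -0.06 (-0.14 to 0.03) and for CLTB 0.06 (-0.02 to 0.14). CLTC had -0.07 (-0.14 to -0.002), with an unadjusted p of 0.0451 and an adjusted p of 0.374 in edgeR's quasi-likelihood test. The intervals of OLR1 (-0.10 to 0.21) and CAV2 (-0.11 to 0.11) were also narrow, while those of DNM1 (-0.20 to 0.55) and MARCO (-1.03 to 0.71) left room for larger differences in either direction.

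LRP1 is encoded by a transcript of 14923 bases in its canonical form, and the length of transcripts moved with the NR against SP comparison. Over the tested genes with a canonical transcript length, the median log2 fold change was 0.07 for transcripts of up to 1000 bases. It fell to -0.08 for the 1097 genes with transcripts over 8000 bases. Of these long genes 25.1% were higher in NR, and past the adjusted p 0 were higher and 17 lower. LRP1 lay beyond the median of its length class. CLTC, with a canonical transcript of 8369 bases, lay near that median at -0.07. It ranged from -0.08 to -0.01 over 13 alternatives. In the fit of all 9 libraries together LRP1 stood at -0.27 and missed the adjusted p threshold, at 0.0568 in edgeR's quasi-likelihood test. With the trends of length and GC content removed by local regression, an alternative chosen after seeing the data, LRP1 stood at -0.19 with an adjusted p of 0.0307 in edgeR's quasi-likelihood test. Leaving out COL1A2 and PDGFRA, which passed the filter on low counts only with the help of the SP libraries, the other 6 fibroblast markers also had lower fitted values in NR than in SP, from -0.29 for FAP to -0.04 for LUM, and 0 of the 8 passed the adjusted p in that test. Their part in the LRP1 difference was not tested.

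**Figure D3:**
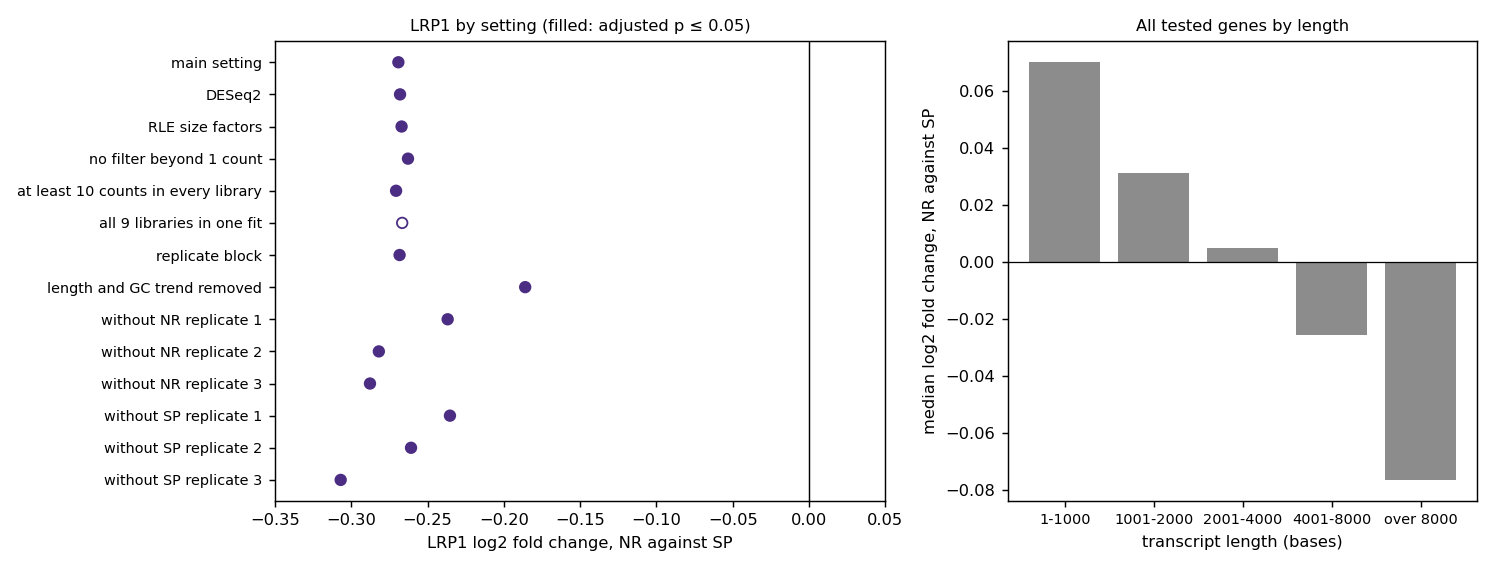
Left, the LRP1 log2 fold change for NR against SP (x axis) in the main setting and 13 alternatives, filled where the adjusted p is at most 0.05; all lie below 0, and the fit of all 9 libraries together is the open point. Right, the median log2 fold change for NR against SP of the tested genes with a canonical transcript, by its length, which runs from 0.07 in the shortest class to -0.08 in the longest.

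Per kb of exon, the members' levels spanned more than 3 orders of magnitude in Ab. CLTB was highest at 83.2 ± 4.90 CPM per kb (SD, n = 3 for these levels), followed by CLTC at 45.0 ± 4.17, CAV1 at 12.8 ± 0.461 and CAV2 at 8.41 ± 0.429. DNM2 at 6.32 ± 0.386, SCARB1 at 5.31 ± 0.342, OLR1 at 3.88 ± 0.203 and LRP1 at 2.11 ± 0.262 CPM per kb formed the next steps, and DNM1 at 0.194 ± 0.0211 and MARCO at 0.0383 ± 0.0173 came last. In the particle groups SCARB1, OLR1 and LRP1 all stood above DNM2. SCARB1 reached 11.9 ± 0.266 CPM per kb in NR and 12.4 ± 0.187 in SP, which did not differ beyond the spread from CAV2 at 12 ± 0.467 and 12 ± 0.788. OLR1 at 8.91 ± 0.268 was above LRP1 at 8.06 ± 0.260 in NR, and LRP1 at 9.72 ± 0.472 was above OLR1 at 8.55 ± 0.654 in SP. These orders use the summed exon length of each gene and depend on it. With the canonical transcript length, DNM2 and SCARB1 lay above both caveolins in Ab, DNM2 at 32.8 CPM per kb stayed above OLR1 at 11.1 and LRP1 at 11.3 in NR, and LRP1 was no longer below OLR1 there.

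Over the 9 libraries, the listed gene most like each member was found by the Pearson r of log2 CPM among 94 others. It was HSPA8, the chaperone that strips clathrin from vesicles, for OLR1 (r = 0.996) and CAV2 (0.979), AP2M1 for SCARB1 (0.998), HIP1 for LRP1 (0.997) and PDZK1 for CAV1 (0.998). These values describe 3 groups of 3 libraries that share their treatment and are given without a test. DNM2 had the lowest best match, LRPAP1 at 0.905.

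The rest of the uptake machinery was read from 6 further lists of 104 genes, also chosen with earlier results of these data known. Of these genes, 87 were tested against Ab. The calls for NR were 12 rises and 2 falls, and those for SP 13 rises and 4 falls, so that 13.8% and 14.9% rose, near the 12.4% and 12.6% of all genes, and 2.3% and 4.6% fell, where 10.3% and 10.6% of all genes did. In each comparison 9 of the 87 genes passed the filter on low counts only through the group where they are high, among them STAB1, STON1, CAVIN2, VLDLR and ROR1, and without these the calls were 8 rises and 0 falls for NR and 9 rises and 1 fall for SP. With no fold minimum there were 42 rises and 25 falls for NR (48.3% and 28.7%, where 36.4% of all genes rose and 36.4% fell). For SP there were 43 rises and 20 falls (49.4% and 23.0%, where 36.4% and 36.6% of all genes did). Their median log2 fold change was 0.16 in NR and 0.13 in SP, and for NR against SP 0 of 86 passed the adjusted p in edgeR's quasi-likelihood test, with 4 (4.65%) at an unadjusted p under 0.05, where 12.9% of all genes were.

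Among other scavenger receptors 8 of 16 had enough counts for the test. STAB1, an endocytic receptor that binds modified LDL, had 2 to 3 counts in Ab libraries, 27 to 53 in those of NR and 38 to 71 in those of SP, a ratio of 21.3 (95% counting interval 10.1 to 54.2) in NR and 22.4 (10.6 to 56.7) in SP. SCARA3, a class A relative of MARCO, rose from 23.5 ± 1.03 CPM in Ab to 115.9 ± 4.50 in NR and 112.5 ± 3.91 in SP (SD, n = 3). In NR these 2 were the only calls of the list (25.0% higher, where 12.4% of all genes were). In SP the calls were 3 rises (37.5%, where 12.6% of all genes rose), with CD163L1 as the third, and 1 fall, that of SCARF2. STAB1 and SCARF1 passed the filter on low counts only through the group where they are high. Without these, 1 of 6 was called higher and 0 lower in NR, and 2 of 6 higher and 1 lower in SP.

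In the list of the LDL receptor family and its partners, 4 of 16 tested genes were called higher and 1 lower in each particle group. Over all genes tested, 12.4% and 12.6% were called higher in NR and SP, and 10.3% and 10.6% lower. LRP4, called higher, and VLDLR, called lower, passed the filter on low counts only through the group where they are high. Without these, 3 of 14 were called higher and 0 lower in each group. SORL1, a sorting receptor, rose from 0.866 ± 0.00536 CPM in Ab to 5.17 ± 0.899 in NR and 6.11 ± 1.25 in SP (SD, n = 3). PDZK1, which is not a receptor but a PDZ scaffold that binds SR-B1, rose from 0.869 ± 0.0391 CPM to 13.0 ± 1.65 and 16.1 ± 4.11. VLDLR, the receptor for triglyceride-rich lipoproteins, fell from 4.48 ± 0.252 CPM to 0.95 ± 0.649 in NR and 0.647 ± 0.336 in SP.

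Of 31 tested clathrin adaptors and accessory genes, 3 were called higher in each particle group (9.68%, where 12.4% and 12.6% of all genes were) and 0 lower. Without STON1, which passed the filter on low counts only through the particle libraries, 2 of 30 were called higher in each group. The 3 called genes were STON1 and ARRB1, both endocytic adaptors, and FCHO1, which helps to start clathrin pits. STON1 had 5 to 19 counts in Ab libraries, 50 to 99 in those of NR and 62 to 75 in those of SP, and ARRB1 rose 4.03-fold in both groups, but 29.1% and 25.8% of their exon bases are shared with other genes. FCHO1 rose 2.15-fold in NR and 2.06-fold in SP. The 5 subunit genes of the AP-2 adaptor, chosen after their values were seen, were all higher in both groups without reaching 2-fold: AP2A1 by 0.87 and 0.89 on the log2 scale in NR and SP, AP2B1 by 0.74 and 0.78, AP2M1 by 0.63 and 0.67, AP2S1 by 0.38 and 0.29, and AP2A2 by 0.29 and 0.25, with adjusted p of at most 0.00144 in edgeR's quasi-likelihood test.

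Caveolar genes moved in both directions, with 1 of 8 called higher in each group (12.5%, where 12.4% and 12.6% of all genes were). In NR 1 was called lower and in SP 2, where 10.3% and 10.6% of all genes were. The called genes, CAVIN2, ROR1 and in SP CAVIN4, passed the filter on low counts only through the group where they are high. Without the genes kept in this way, 0 of 5 were called higher or lower in either comparison. CAVIN2, a cavin that shapes caveolae, had 0, 0 and 1 count in the Ab libraries, 31, 29 and 26 counts in those of NR and 52, 52 and 42 in those of SP, a ratio of 104 (95% counting interval 18.1 to 4140) in NR and 150.0 (26.5 to 5960) in SP. ROR1, a receptor kinase that binds caveolar proteins, fell 2.12-fold in NR and 3.0-fold in SP, on 4 to 17 counts per library. CAVIN1, the cavin most needed for caveolae and chosen after its values were seen, fell by 0.19 and 0.18 on the log2 scale, with adjusted p of 2.126e-04 and 7.787e-04 in edgeR's quasi-likelihood test, while CAV1 rose.

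Of 13 tested scission genes, DNM3 alone was called, higher in both groups (7.69%, where 12.4% and 12.6% of all genes were). It had 12 to 22 counts in Ab libraries, 70 to 139 in those of NR and 119 to 131 in those of SP. It rose 6.01-fold in NR and 6.76-fold in SP, on a level of 5.04 ± 0.583 and 5.70 ± 0.606 CPM (SD, n = 3) in these groups. Of 11 tested genes of clathrin-independent routes, ARHGAP26, which encodes GRAF1, was called (9.09%, below the same shares of all genes). Its rise was 2.24-fold in NR and 2.32-fold in SP. FLOT1 and CDC42 of this list had 0 to 4 and 8 to 19 counts per library although most cells express them, so no level of either is read from these files.

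**Figure D4:**
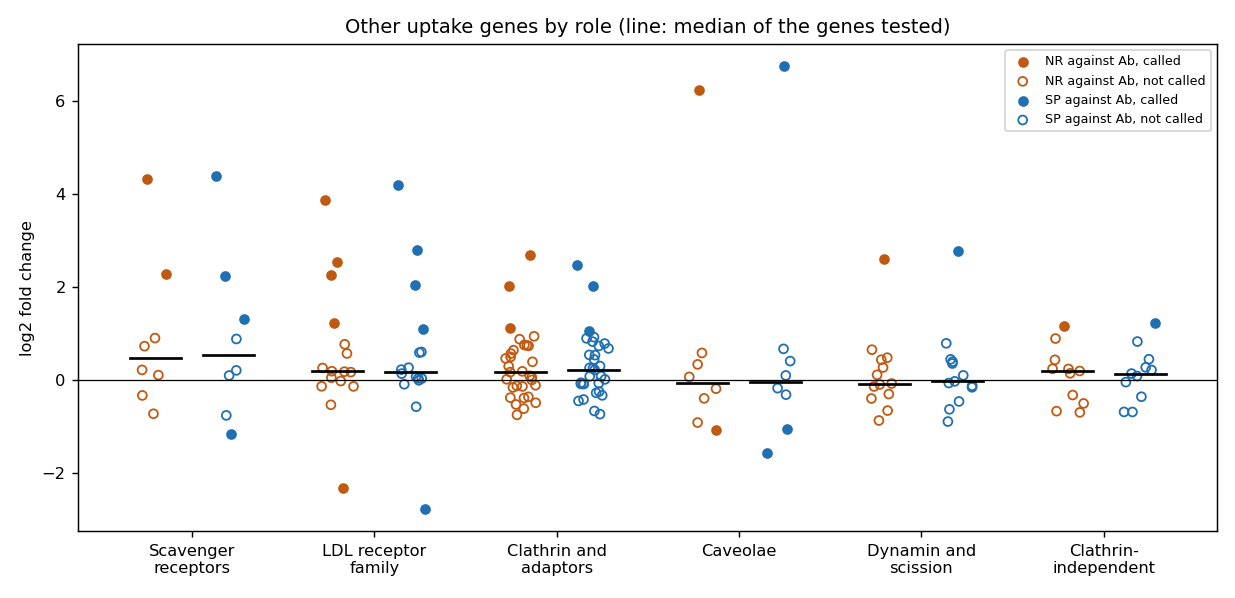
Log2 fold change (y axis) of the tested genes in 6 lists of other uptake genes for NR and SP against Ab, filled where called, with the median of each list as a line. The medians run from -0.08 to 0.54, and CAVIN2 is the highest point in both comparisons.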

How the data were processed

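Poly-A RNA of SNU5 cells in 3 libraries each of NR, SP and Ab was analysed. The authors filtered the reads for adapters and quality, mapped them and deposited raw counts per Ensembl gene, with no scaling between libraries. The study's reporting summary names hg19 (GRCh37) as the genome. The build named with the deposited data is a mouse one, while the gene IDs are human, and GRCh37 was used here. The submitters' processing notes name HISAT2 2.1.0 and DESeq2 1.16.1. The counting tool is named in different ways, and its strand setting and annotation release are not given in the sources used here. Of 60880 gene IDs, 59858 were found in GENCODE release 44 lifted to GRCh37, after removal of version suffixes, and the other 1022 took no more than 0.115% of any library. Exon lengths and shared exon bases were taken from that annotation. Promoters came from RefSeq (GRCh38.p14).

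The counts of the 6 libraries of a comparison were fitted by edgeR 4.0.16 under R 4.3.3 (TMM, filterByExpr with a minimum count of 10 and a minimum total of 15, robust quasi-likelihood test, Benjamini-Hochberg adjustment). Ratios were compared by exact permutation tests in scipy 1.17.1. Intervals of ratios of low counts were exact and cover counting error only. The alternatives were DESeq2 1.42.0, RLE size factors, other filters and fold minimums, a single fit of all 9 libraries, a block for the replicate number, other lengths and each library left out, with removal of length and GC trends (span 0.3) and the canonical length added after seeing the data. The steps were tested on simulated data. The members and lists were chosen with earlier results of these data known. From the 6 further lists, up to 3 genes per list called in both particle groups with the largest mean change were named, and up to 2 per list past the adjusted p between NR and SP. Other genes are given as chosen after their values were seen.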

Additional observations from a re-analysis of the deposited data

Results flagged for a closer look

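LRP1 was the one gene of the 10 members and the 104 other uptake genes past the adjusted p between NR and SP. Its log2 fold change for NR against SP was -0.27 (SE 0.04, 3 libraries against 3, lower in 3 of 3 NR libraries) with an adjusted p of 0.00875 in edgeR's quasi-likelihood test, and it was -0.19 with the trends of transcript length and GC content removed. In the fit of all 9 libraries together LRP1 missed the adjusted p threshold (-0.27, adjusted p = 0.0568 in the same test).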

How the results depend on the processing

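The number of members called stayed at 5 to 6 in NR against Ab, 4 to 6 in SP against Ab and 0 in NR against SP, except that with no fold minimum it was 8, 10 and 1. When each library was left out in turn it was 5, 5 and 0 throughout, but without NR library 2 or Ab library 1 MARCO took the place of DNM1 in NR against Ab. Of the other uptake genes, 14 were called in NR against Ab and 17 in SP against Ab. These became 32 and 34 with a fold minimum of 1.5, 67 and 63 with none, and 8 and 10 with at least 10 counts in every library, a filter that tests fewer genes. Leaving out libraries gave 13 to 15 and 16 to 17. LRP1 in NR against SP ranged from -0.31 to -0.24 with single libraries left out. It passed the adjusted p in 12 of 13 alternatives, and the exception was the fit of all 9 libraries (-0.27, adjusted p = 0.0568 in edgeR's quasi-likelihood test); the cause was not tested. Values near 0 in NR against SP turned over without single libraries: MARCO ranged from -0.372 to 0.022 (without SP library 3), CAV2 from -0.0254 (without SP library 2) to 0.064, with -0.0139, -0.0105 and -0.023 without NR library 1, NR library 3 and SP library 3, and the CLTB share from -0.0278 percentage points (without NR library 3) to 0.356. The replicate numbers did not pair the libraries, since same-numbered libraries correlated at -0.123 to 0.0617 in their deviations from group means. With the replicate number as a block, 5, 5 and 0 members were called, and LRP1 was -0.27 with an adjusted p of 0.0275. Depth limits MARCO, whose Ab libraries lay under the floor of 3 counts, and DNM1, whose interval between NR and SP is wide.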
